A study of Homo sapiens with 6 samples.

Results

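The expression of 9 protein-coding genes for cell-surface antigens was examined in gastric cancer cells with SCAMP1 knockdown: CEACAM1, CEACAM5, CEACAM6 and CEACAM7 of the carcinoembryonic antigen family, and LY6D, LY6E, LY6K, LYPD3 and PSCA of the LY6/uPAR family. They were taken by gene name from the 58735 genes of the deposited table. The 9 genes were chosen with earlier results of these data known, so counts among them are a description only. The cells were NCI-N87, an established line from a gastric carcinoma. All cells were infected with lentivirus in the presence of polybrene and kept as puromycin-resistant populations (2 μg/ml), with shRNA against SCAMP1 (shScamp1, 3 libraries) or with the control vector (shNC, 3 libraries). The methods of the study name these populations shCtrl, which carries an empty vector, and shS1#1, so that a single shRNA was compared with a vector without an shRNA. The populations are not described as clones. The sample titles call the libraries biological replicates, but the sources used here do not say whether replicates were infected separately. The p-values thus measure the spread between these samples, which may be technical. The 6 libraries held 14311769 to 15988700 reads on genes.

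CEACAM proteins are adhesion molecules of the immunoglobulin superfamily. CEACAM5 is the carcinoembryonic antigen measured in serum as a tumor marker, and CEACAM5, CEACAM6 and CEACAM7 are held in the membrane by a glycosylphosphatidylinositol (GPI) anchor, whereas CEACAM1 spans the membrane and can carry an inhibitory signaling tail. LY6/uPAR proteins share a small cysteine-rich fold, and the members described here are GPI-anchored as well. PSCA was named as a prostate stem cell antigen and is also expressed in gastric epithelium, LY6E is an interferon-inducible protein, LYPD3 and LY6D are found in stratified epithelia, and LY6K is best known from testis.

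Levels are given as FPKM, which are reads scaled to gene length and by 1 factor per library. The target of the shRNA, SCAMP1, was at 12.6, 12.1 and 11.5 FPKM in the shNC libraries. It was at 1.70, 1.37 and 1.99 FPKM in the shScamp1 libraries, so the labels and the target transcript went together in all 6. Epithelial markers fixed as a check (8 of 8 measured, among them EPCAM and KRT8) were abundant, with summed levels of 4411 to 4628 FPKM in shNC and 8001 to 8701 FPKM in shScamp1 libraries. Most of this sum came from the keratins KRT8, KRT18 and KRT19, while EPCAM was at 149.7 to 156.3 FPKM in shNC and 141.1 to 153.9 FPKM in shScamp1 libraries. Gastric markers were scarce, since only 1 of 7, the transcription factor SOX2, reached a mean of 0.5 FPKM and TFF1 and CLDN18 were near 0. Of the intestinal markers 2 of 6 reached it (CDX2 and VIL1). Fibroblast markers summed to 0.487 to 0.773 FPKM over both groups. Endothelial markers summed to 0.139 to 0.235 FPKM in shNC and 0.381 to 0.612 FPKM in shScamp1 libraries. Leukocyte markers summed to 1.44 to 1.73 FPKM and 2.25 to 4.70 FPKM, mostly from CD79A, and PTPRC, CD3E, CD68, PECAM1, CDH5, DCN and LUM each had a mean under 0.05 FPKM in the table. One library stood apart from the rest. In shScamp1 replicate 2, mitochondrial transcripts took 9.21% of reads, against 6.09% to 6.78% in the other libraries. It deviated in both directions. Of tested genes, 9.51% lay more than 1.5-fold below both other shScamp1 libraries (2.21% to 2.92% for any other library within its group). A further 5.46% lay more than 1.5-fold above both (1.90% to 2.55% for any other library within its group).

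The 4 CEACAM genes lie on chromosome 19 (hg38). CEACAM7 (41673307 to 41706976, reverse strand), CEACAM5 (41708585 to 41729798, forward strand) and CEACAM6 (41750977 to 41772208, forward strand) are neighbors, and CEACAM1 (42507304 to 42561234, reverse strand) lies apart. Their promoters are shown because the genes share an origin but did not all move together. Each runs from 250 bases before to 50 bases after the RefSeq transcription start on GRCh38.p14, at chr19:41755280-41755579 for CEACAM6, chr19:41708376-41708675 for CEACAM5, chr19:41688221-41688520 for CEACAM7 and chr19:42528432-42528731 for CEACAM1, each 5′ to 3′ on the strand of its gene. All 4 starts lie inside the gene boundaries of the deposited table. Capitals mark the E-box CACGTG and an interferon-type repeat, which is GAAA, any 2 bases and GAAA, both searched on both strands. The GC box GGGCGG and the AP-1 motif TGACTCA were searched in the same way and are not marked.
CEACAM6: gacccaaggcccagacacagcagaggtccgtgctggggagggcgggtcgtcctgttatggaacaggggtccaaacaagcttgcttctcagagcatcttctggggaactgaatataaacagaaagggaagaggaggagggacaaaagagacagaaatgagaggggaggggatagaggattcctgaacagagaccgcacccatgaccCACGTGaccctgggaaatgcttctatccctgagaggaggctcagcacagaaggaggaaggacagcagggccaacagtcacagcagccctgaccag
CEACAM5: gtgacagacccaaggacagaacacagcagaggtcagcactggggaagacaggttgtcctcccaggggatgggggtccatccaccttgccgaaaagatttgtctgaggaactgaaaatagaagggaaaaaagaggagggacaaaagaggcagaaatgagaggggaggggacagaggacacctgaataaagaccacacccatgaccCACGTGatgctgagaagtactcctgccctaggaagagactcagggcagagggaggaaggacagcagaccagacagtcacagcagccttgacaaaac
CEACAM7: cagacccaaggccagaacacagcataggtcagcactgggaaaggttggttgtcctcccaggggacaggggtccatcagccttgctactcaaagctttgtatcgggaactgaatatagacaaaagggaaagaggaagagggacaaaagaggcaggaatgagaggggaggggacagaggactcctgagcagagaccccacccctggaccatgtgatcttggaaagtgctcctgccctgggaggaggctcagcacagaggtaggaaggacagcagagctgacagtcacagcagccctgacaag
CEACAM1: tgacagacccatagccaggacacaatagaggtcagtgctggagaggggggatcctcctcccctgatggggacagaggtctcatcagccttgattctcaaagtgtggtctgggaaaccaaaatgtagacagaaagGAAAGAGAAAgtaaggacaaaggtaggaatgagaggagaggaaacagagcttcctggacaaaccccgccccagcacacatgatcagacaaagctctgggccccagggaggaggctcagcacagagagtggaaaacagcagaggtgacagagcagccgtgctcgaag

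CACGTG was present in the CEACAM6 promoter, starting 45 bases before the transcription start, and in the CEACAM5 promoter, starting 46 bases before it, and was not found in these windows of CEACAM7 and CEACAM1. Of 27305 promoters of the same length, 7.43% held it. The GAAA repeat was found once, in CEACAM1, 116 bases before the start, and in 3.65% of all promoters. GGGCGG was found once each in CEACAM6 and CEACAM1 and in 44.6% of all promoters, and TGACTCA in none of these 4 windows and in 4.92% of all promoters. The CEACAM5 and CEACAM6 promoters were identical in 75.9% of aligned positions. CEACAM7 was closer to each of them than they were to each other, with 81.4% identity to CEACAM5 and 81.3% to CEACAM6, and CEACAM1 was 67.1% to 73.4% identical to the other 3. These matches describe letters in a window, and no binding was measured.

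In shNC cells the order of levels was CEACAM6, LY6E, LYPD3, PSCA, CEACAM5, LY6D, CEACAM1, CEACAM7 and LY6K, and the values of neighbors in this order did not overlap. CEACAM6 alone made up 93.1% to 93.7% of the summed FPKM of the 4 CEACAM genes in shNC libraries and 94.7% to 95.8% in shScamp1 libraries. In shScamp1 cells PSCA moved up to the third place by its mean, where its values overlapped with those of LYPD3.

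**Figure D1:**
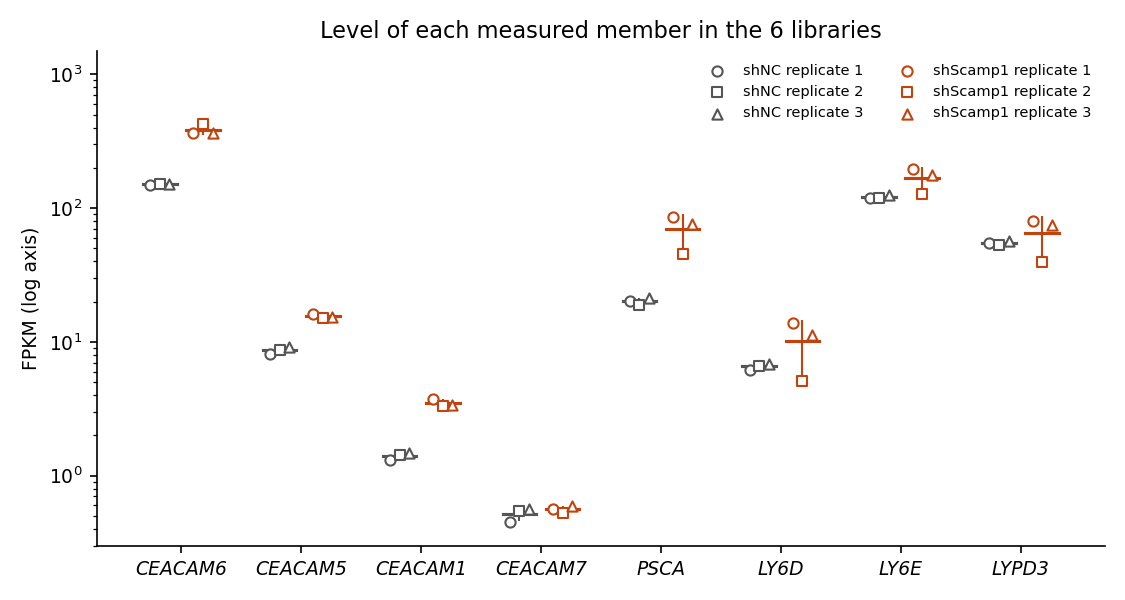
FPKM on a log axis (vertical) of the 8 members that averaged 0.5 FPKM or more (horizontal) in shNC (grey) and shScamp1 (orange) libraries, with a symbol per replicate, a bar at the group mean and a vertical line for its SD (n = 3). The CEACAM6, CEACAM5, CEACAM1, PSCA and LY6E values of all shScamp1 libraries lie above those of all shNC libraries, LY6E only just (126.7 against 126.3 FPKM). Replicate 2 is the lowest shScamp1 value of 7 of the 8 genes, all but CEACAM6.

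Of the 9 genes, 8 averaged 0.5 FPKM or more and were tested with limma on log2(FPKM + 0.1), together with all 15556 genes that passed this filter. CEACAM1, CEACAM5, CEACAM6 and PSCA were higher in shScamp1 cells at an adjusted p under 0.05, which is 4 of 8, and 0 were lower by limma (5 higher and 0 lower at an unadjusted p under 0.05, against 16.1% and 14.7% of all tested genes, and 4 and 0 by voom). In bulk RNA, more expressing cells and more RNA per cell cannot be told apart. Over all tested genes 8.82% were called higher and 5.17% lower (1372 and 805 genes), and with voom, which scales by total reads, 8.36% and 10.6% (1300 and 1655 genes). With the additional threshold of the study, an absolute log2 fold change above 1, CEACAM1, CEACAM6 and PSCA remained, 3 of 8, all higher, against 2.42% of all genes that were called higher at this threshold. The median log2 fold change of the 8 genes was 0.67, beside -0.02 for all genes tested. Without shScamp1 replicate 2, LY6D, LY6E and LYPD3 were called higher too. This made 7 of 8, against 14.7% of all genes in that fit, and the median was 0.89. Replicate 2 was the lowest shScamp1 value of these added genes, so leaving it out raises their change. None of them was called when shScamp1 replicate 1 was left out instead. Their log2 fold changes were then 0.21 for LY6D, 0.30 for LY6E and 0.00235 for LYPD3 (limma adjusted p = 0.682, 0.230 and 0.996). The values of 5 of the 8 genes did not overlap between the groups, all higher in shScamp1 cells, as for 20.4% of all genes.

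CEACAM6, an adhesion antigen of epithelial cells and granulocytes, was the most abundant of the 9 genes and gained the most FPKM. Its level was 148.8, 151.8 and 151.6 FPKM in the shNC libraries and 367.2, 428.1 and 365.0 FPKM in the shScamp1 libraries, from 7148 to 17886 reads per library. All 3 shScamp1 libraries were far above the narrow shNC range, and replicate 2 was the highest of them. The mean rose from 150.7 ± 1.71 to 386.7 ± 35.8 FPKM (SD, n = 3 each), 2.57-fold. The log2 fold change was 1.35 (SE, the standard error, 0.09, 95% interval 1.14 to 1.57, limma adjusted p = 0.000603).

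CEACAM5 was at 8.19, 8.74 and 9.16 FPKM in the shNC libraries and at 16.1, 15.1 and 15.5 FPKM in the shScamp1 libraries. The groups were well apart and the spread within each was small. The mean rose from 8.69 ± 0.486 to 15.6 ± 0.494 FPKM (SD, n = 3 each). Its log2 fold change was 0.83 (SE 0.07, limma adjusted p = 0.00123), under the fold threshold of the study.

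CEACAM1, the transmembrane member, was expressed at a low level, with 1.30, 1.42 and 1.48 FPKM in the shNC libraries and 3.77, 3.32 and 3.35 FPKM in the shScamp1 libraries. All shScamp1 values lay above all shNC values. The mean rose from 1.40 ± 0.0897 to 3.48 ± 0.250 FPKM (SD, n = 3 each). On the log2 scale the change was 1.25 (SE 0.10, limma adjusted p = 0.00110). With a pseudocount of 1 FPKM the log2 fold change was 0.90, under the fold threshold, as the scale understates the change of low genes. Values per gene do not separate the long-tailed and short-tailed isoforms of CEACAM1.

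CEACAM7, an antigen of colonic epithelium, was close to the filter at 0.452, 0.544 and 0.562 FPKM in shNC and 0.569, 0.524 and 0.593 FPKM in shScamp1 libraries, from 19 to 24 reads each. The groups overlapped. The log2 fold change was 0.10 with a 95% interval from -0.52 to 0.72 (limma adjusted p = 0.825), so that a change as large as that of CEACAM6 lay outside the interval and changes within it were not detectable at this depth.

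Within a library, the ratio of CEACAM5 to CEACAM6 does not depend on the scaling between libraries. CEACAM6 was 18.2, 17.4 and 16.6 times CEACAM5 in the shNC libraries and 22.8, 28.3 and 23.6 times in the shScamp1 libraries, without overlap. The mean log2 ratio of CEACAM5 to CEACAM6 was -4.10 ± 0.0662 in shNC and -4.62 ± 0.167 in shScamp1 cells (SD, n = 3 each), a difference of -0.52 (p = 0.1 in an exact permutation test, two-sided, which cannot go lower with 3 libraries per group). Relative to CEACAM5, CEACAM6 was thus higher in every shScamp1 library. In GENCODE 29 transcripts, 12.6% of the 100-base windows of CEACAM5 and 1.73% of those of CEACAM6 were identical in another gene. That gene was AC243967.1, whose model overlaps both and which was listed at 0 in all libraries, so reads in those windows are uncertain. With windows of 50 bases, some were also shared between CEACAM5 and CEACAM6. AC243967.2, antisense to CEACAM6, was at a mean of 0.334 FPKM in shNC and 0.952 FPKM in shScamp1 cells, and the sources used here do not say whether reads were assigned by strand.

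**Figure D2:**
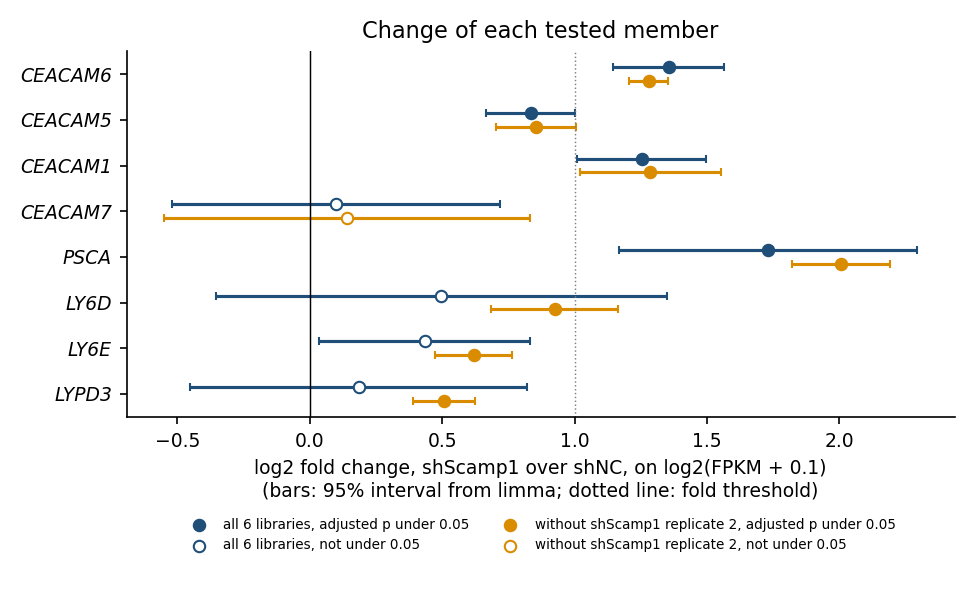
Log2 fold change of shScamp1 over shNC (horizontal, on log2(FPKM + 0.1)) for the 8 tested genes (vertical), with 95% intervals from limma, for all 6 libraries (blue) and without shScamp1 replicate 2 (yellow). Filled points have an adjusted p under 0.05, which holds for 4 genes with all libraries and for 7 without replicate 2.

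Among the LY6/uPAR genes, PSCA showed the largest log2 fold change of the 8 tested genes. PSCA (chromosome 8, 142670308 to 142682724, forward strand) was at 20.3, 18.7 and 21.3 FPKM in the shNC libraries and at 85.6, 45.5 and 76.6 FPKM in the shScamp1 libraries. All shScamp1 values were above all shNC values, but replicate 2 was well below the other 2. The mean rose from 20.1 ± 1.30 to 69.2 ± 21.0 FPKM (SD, n = 3 each), 3.44-fold. The log2 fold change was 1.73 (SE 0.23, 95% interval 1.17 to 2.29, limma adjusted p = 0.00649). Without shScamp1 replicate 2 the log2 fold change was 2.01 (adjusted p = 0.000107). JRK, which overlaps PSCA on the opposite strand and shares 7.46% of its 100-base windows, had a log2 fold change of 0.16 (15.2 to 17.1 FPKM, limma adjusted p = 0.276).

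LY6E (chromosome 8, 143017982 to 143023832, forward strand) was the second most abundant member. It was at 118.1, 119.7 and 126.3 FPKM in the shNC libraries and at 196.7, 126.7 and 176.6 FPKM in the shScamp1 libraries. Replicate 2 lay just above the highest shNC value, and the other 2 shScamp1 libraries lay clearly above it. The log2 fold change was 0.43 (SE 0.16, 95% interval 0.04 to 0.83) and did not pass the threshold (limma adjusted p = 0.134). Without shScamp1 replicate 2 it was 0.62 (adjusted p = 0.00166).

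LYPD3 (chromosome 19, 43460787 to 43465660, reverse strand), an antigen of squamous epithelium also named C4.4A, was at 54.8, 52.6 and 56.6 FPKM in the shNC libraries and at 80.1, 39.7 and 75.4 FPKM in the shScamp1 libraries. Replicate 2 was below all shNC libraries, whereas replicates 1 and 3 were above them. With all libraries the log2 fold change was 0.19 (SE 0.26, 95% interval -0.45 to 0.82, limma adjusted p = 0.672), and without shScamp1 replicate 2 it was 0.51 (adjusted p = 0.00156).

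LY6D (chromosome 8, 142784880 to 142786592, reverse strand) was at 6.17, 6.65 and 6.84 FPKM in shNC and at 13.8, 5.08 and 11.4 FPKM in shScamp1 libraries. Replicate 2 was again below all shNC values. The log2 fold change was 0.50 (SE 0.35, 95% interval -0.35 to 1.35, limma adjusted p = 0.384), and 0.92 without shScamp1 replicate 2 (adjusted p = 0.00226). LY6K (chromosome 8, 142700111 to 142705127, forward strand) held 1 read in shNC replicate 1, 1 read in shScamp1 replicate 3 and 0 in the other 4 libraries. A count of 0 allows up to 3 reads, which is 0.0445 to 0.0541 FPKM in these libraries by counting error only, so no fold is given and LY6K was not tested.

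Within shScamp1 cells the tested members were compared by the log2(FPKM + 0.1) of replicate 2 minus the mean of replicates 1 and 3. This difference was -1.28 for LY6D, -0.97 for LYPD3, -0.83 for PSCA and -0.56 for LY6E. It was 0.23 for CEACAM6, -0.06 for CEACAM5, -0.10 for CEACAM1 and -0.13 for CEACAM7, beside a median of -0.02 over all tested genes. Of all tested genes, 2.83% had a lower value than LY6D, 4.90% than LYPD3, 6.90% than PSCA and 13.9% than LY6E, whereas the 4 CEACAM genes lay between 40.4% and 71.8%. The 9 other LY6/uPAR genes tested ran from -0.74 to 1.95, with 6 below 0, beside 7977 of all 15556 genes tested. All those above 0 averaged under 0.5 FPKM in 1 of the groups. Only CD59, LY6G6C, LYPD6B and PLAUR averaged more than this in both groups, and each was lowest in replicate 2 among the shScamp1 libraries. Whether a lower value in replicate 2 was shared by the whole family cannot be told from these genes. The higher mitochondrial share of replicate 2 went with these values, and its part in them was not tested. The summed FPKM of the 5 LY6/uPAR genes was 376.2, 217.0 and 340.0 in the shScamp1 libraries against 197.7 to 211.0 in shNC libraries. PSCA made up 21.0% to 22.8% of this sum in all 3 shScamp1 libraries, replicate 2 included, and 9.47% to 10.2% in shNC libraries.

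**Figure D3:**
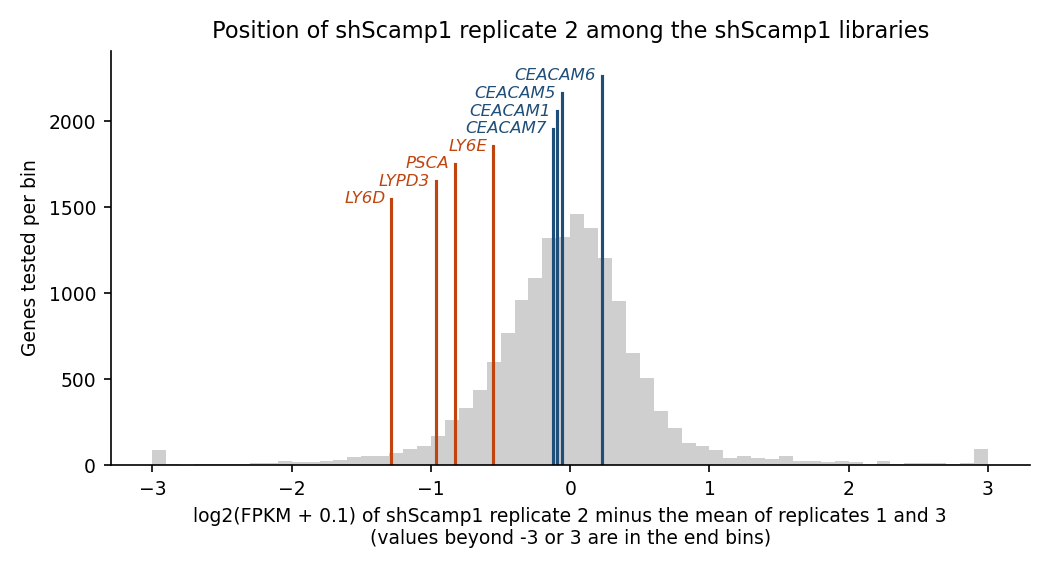
Number of tested genes (vertical) by the log2(FPKM + 0.1) of shScamp1 replicate 2 minus the mean of shScamp1 replicates 1 and 3 (horizontal, bins of 0.1), with a line for each tested member, CEACAM genes in blue and LY6/uPAR genes in orange. The 4 LY6/uPAR lines lie between -1.28 and -0.56 and the 4 CEACAM lines between -0.13 and 0.23. These LY6/uPAR genes are also shorter than the CEACAM genes.

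Related genes were read from the same fit for comparison. Their lists were written from family names and known members, with earlier results of these data known, so their counts are a description only. Of the 18 other CEACAM and pregnancy-specific glycoprotein genes in the table, only CEACAM19 passed the filter. CEACAM19 was at 6.80, 6.31 and 6.49 FPKM in shNC and 4.21, 3.90 and 3.88 FPKM in shScamp1 libraries, and fell by 0.70 on the log2 scale (SE 0.07, limma adjusted p = 0.00253). This was opposite to CEACAM1, CEACAM5 and CEACAM6.

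Of the 25 other LY6/uPAR genes, 9 were tested and 0 were called by limma at an adjusted p under 0.05, beside 8.82% of all genes higher and 5.17% lower. At an unadjusted p under 0.05, 4 were higher and 1 was lower (16.1% and 14.7% of all genes), and voom called 1, lower. Of the 9, 5 averaged under 0.5 FPKM in 1 of the groups and passed the filter only through the other, so these counts are not a result about the family. SLURP1, a secreted member next to PSCA and LY6D on chromosome 8, is such a gene, with 0.235, 0.224 and 0.121 FPKM in shNC and 1.02, 0.952 and 0.509 FPKM in shScamp1 libraries (limma adjusted p = 0.0509). When shScamp1 replicate 2 was left out, 3 of the 9 were called, all higher, in a fit that called 14.7% of all genes higher. They were CD59, the GPI-anchored complement inhibitor (log2 fold change 0.35), LY6G6C (0.75) and PLAUR, the urokinase receptor (0.40).

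Genes that build, transfer and remodel the GPI anchor showed a median log2 fold change of -0.06 over 29 tested. By limma 2 were called higher and 1 lower, which is not above the 8.82% and 5.17% of all genes. By voom 2 were higher and 5 lower, beside 8.36% and 10.6% of all genes, so the number called lower depended on the method. At an unadjusted p under 0.05, 6 were higher and 5 lower, beside 16.1% and 14.7% of all genes. TMEM8A, a phospholipase that acts on GPI anchors (log2 fold change 0.63, adjusted p = 0.00350) and PGAP3, a remodeling enzyme of the anchor lipid (0.48, adjusted p = 0.00963), rose, and PIGZ, a mannosyltransferase of the pathway (-0.73, adjusted p = 0.0208), fell by limma. When replicate 2 was left out, 4 were called higher and 6 lower, against 14.7% and 13.2% of all genes.

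Of 14 tested surface antigens of other families that serve as antibody targets in epithelial tumors, 6 were called higher and 1 lower, beside 8.82% and 5.17% of all genes. Tissue factor F3 (log2 fold change 1.92, limma adjusted p = 0.000273) rose from 12.5 ± 0.492 to 47.8 ± 5.43 FPKM and CD24 (1.25, adjusted p = 0.000685) from 6.08 ± 0.518 to 14.6 ± 0.715 FPKM (SD, n = 3 each). The complement regulator CD55 (0.65) and the adhesion molecule NECTIN4 (0.65) rose as well, and CD44, the hyaluronan receptor, fell (-0.43, limma adjusted p = 0.0189). EPCAM, the pan-epithelial antigen, had a log2 fold change of -0.05 (limma adjusted p = 0.670).

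Of 8 known partners of CEACAM1 and LYPD3, 4 were called higher and 0 lower by limma, beside 8.82% and 5.17% of all genes, with a median log2 fold change of 0.29 (4 and 0 at an unadjusted p under 0.05, beside 16.1% and 14.7%, and 3 and 0 by voom, beside 8.36% and 10.6%). AGR2, a secreted ligand of LYPD3, was at 6.10, 5.40 and 5.89 FPKM in shNC and 12.2, 9.89 and 12.0 FPKM in shScamp1 libraries (log2 fold change 0.95, adjusted p = 0.00289). Its paralog AGR3 (0.85, adjusted p = 0.0206), the galectin LGALS3 (0.59, adjusted p = 0.0147) and the kinase SRC (0.33, adjusted p = 0.0408) rose too. The phosphatases that bind the CEACAM1 tail, PTPN6 (0.13) and PTPN11 (0.04), did not pass the threshold. Without shScamp1 replicate 2, PTPN6 was called as well (0.33, limma adjusted p = 0.0384), which made 5 of 8, beside 14.7% of all genes.

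**Figure D4:**
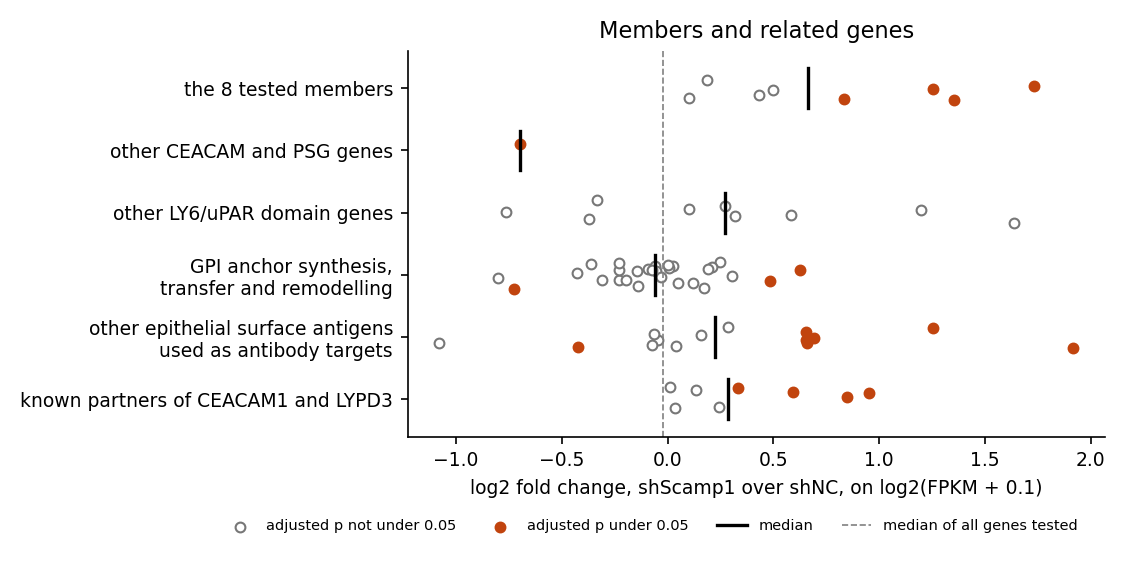
Log2 fold change of shScamp1 over shNC (horizontal, on log2(FPKM + 0.1)) of the 8 tested members and of each related list (vertical), with a point per gene, filled where the adjusted p is under 0.05, a bar at the median of each list and a dashed line at the median of all genes tested (-0.02). All 8 members lie above 0, and the GPI anchor genes spread on both sides of it.

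The tested genes within 200 kb of a member were read from the same fit, in which 8.82% of all genes were called higher and 5.17% lower, or 14.7% and 13.2% without shScamp1 replicate 2. Around CEACAM5, CEACAM6 and CEACAM7, 1 of 7 tested genes was called, CD79A, a B-cell receptor component, which was at 0.965, 1.16 and 1.08 FPKM in shNC and 4.05, 1.85 and 3.82 FPKM in shScamp1 libraries (log2 fold change 1.44, limma adjusted p = 0.0267). Leaving out shScamp1 replicate 2 gave 3 of the 7, 2 higher and 1 lower. Around LYPD3, PHLDB3 alone of 11 genes was called (log2 fold change 0.92, limma adjusted p = 0.00504), and 4, all higher, without replicate 2. Around CEACAM1 (4 genes) and around PSCA, LY6K and LY6D (6 genes) 0 were called by limma and 0 by voom, with 0 and 3 at an unadjusted p under 0.05. These 3 averaged under 0.5 FPKM in shNC cells and passed the filter only through the shScamp1 group, so their count is no result. Without shScamp1 replicate 2, 1 was called lower near CEACAM1 and 1 higher near PSCA, LY6K and LY6D. No other tested gene, member or not, lay within 200 kb of LY6E.

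For the member with the smallest p, CEACAM6, LMO7, VSIR, SLC2A12 and FAM107B were among the 5 genes with the most similar pattern over the 6 libraries, of 7049 genes that averaged 5 FPKM or more. Likeness was the root mean square distance of log2(FPKM + 0.1) after each gene was centered on its own mean, and was 0.0392 to 0.0571 for these 4. Their log2 fold changes were between 1.28 and 1.38, beside 1.35 for CEACAM6. As this measure uses 2 groups of 3 libraries, it mostly reads the size of the difference between the groups.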

How the data were processed

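RNA of 6 NCI-N87 samples (3 shNC, 3 shScamp1) was sequenced. For each of 58735 genes the authors deposited its FPKM in each library, its length and its coordinates. The submitters' processing notes name HISAT2 2.0.5, featureCounts 1.5.0-p3, DESeq2 1.20.0 and hg38, without roles. All gene coordinates equalled GENCODE 29. After multiplication by gene length, 100% of FPKM values above 0 were whole multiples of 1 unit per library (tolerance 0.05 reads), from which reads per gene were recovered. The scaling of FPKM between libraries differed from a scaling by the recovered reads. No column with values per sample was left out.

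Groups were compared in R 4.3.3 with limma 3.58.1 (lmFit, eBayes with trend) on log2(FPKM + 0.1), in the 15556 genes that averaged 0.5 FPKM or more, with Benjamini-Hochberg adjustment over all of them. The filter held 99.5% of reads. The fit was tested on simulated data. The CEACAM5 to CEACAM6 ratio was tested in scipy 1.17.1 with an exact permutation test. Promoters came from RefSeq (GRCh38.p14), and 4 are printed. Alternatives covered the pseudocount, filter, scaling, biotype, trend, voom on recovered reads, the replicate number as a block and leaving out each library. Lists without shScamp1 replicate 2 were added after the data were seen. The members and lists were chosen with earlier results of these data known. Genes named are the 9 members and SCAMP1, up to 6 called genes per list with the smallest p, called neighbors within 200 kb and the 5 genes most like the member with the smallest p. SLURP1, LYPD6B, JRK, the antisense and marker genes, EPCAM, PTPN6, PTPN11 and the genes called only without shScamp1 replicate 2 were named after their values were seen. Of the genes this rule names, 2 are not reported here. Protein sequences were not used here.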

Additional observations from a re-analysis of the deposited data

How the results depend on the processing

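The 4 members called higher (CEACAM1, CEACAM5, CEACAM6 and PSCA) kept their direction and an adjusted p under 0.05 in all 16 alternatives, and no member changed sign in the alternatives that tested it (CEACAM7 was not tested at a mean of at least 1 FPKM, and LY6K was tested only without the filter). Over the fits that each left out 1 library, 4 to 7 members were called, the highest count without shScamp1 replicate 2. In these fits the log2 fold change ranged from 0.21 to 0.92 for LY6D, 0.30 to 0.62 for LY6E and 0.00235 to 0.51 for LYPD3. Those of the called members ranged from 1.20 to 1.29 for CEACAM1, 0.79 to 0.87 for CEACAM5, 1.28 to 1.39 for CEACAM6 and 1.55 to 2.01 for PSCA. Over all genes, 808 (without shNC replicate 2) to 4330 (without shScamp1 replicate 2) were called, against 2177 with all libraries, and 831, 858 and 1030 without shNC replicate 1, shNC replicate 3 and shScamp1 replicate 3. A pseudocount of 1 FPKM left 248 differentially expressed genes instead of 492. The difference in the log2 ratio of CEACAM5 to CEACAM6 was -0.58 to -0.43 when a library was left out. Without shScamp1 replicate 2, called genes numbered 3 among the other LY6/uPAR genes (0 with all libraries), 10 among the GPI anchor genes (3), 3 near CEACAM5, CEACAM6 and CEACAM7 (1), 4 near LYPD3 (1), and 1 each near CEACAM1 and near PSCA, LY6K and LY6D (0). The cause was not tested.

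With the replicate number as a block, 958 genes were called and the same 4 members among them. Deviations of same-numbered libraries from their group means had r of -0.0351, 0.0325 and 0.0668, and not every library was closest to its own number. A pairing by number was thus not seen, but 3 libraries per group cannot exclude one. Depth limits CEACAM7 (19 to 24 reads) and LY6K (at most 1 read).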
